A study of Homo sapiens with 6 samples.

Results

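The genes of the MYC, MAX and MXD network were read from the mRNA of wild strain TPC-1 cells and of *RRM2*-OE-TPC-1 cells. The rule took every row whose gene symbol was *MYC*, *MYCL*, *MYCN*, *MAX*, *MXD1*, *MXD3*, *MXD4*, *MXI1*, *MNT* or *MLX*, which gave 10 genes of the 58735 in the table. MYC, MYCN and MYCL are transcription factors that drive growth and proliferation, and each binds DNA only as a dimer with MAX. The proteins of *MXD1*, *MXI1*, *MXD3*, *MXD4* and *MNT* compete for the same partner and the same sites, the E-boxes, and silence them by recruiting SIN3 and histone deacetylases. MLX is a second common partner. It pairs with some of the antagonists and with the glucose-sensing factors MondoA and ChREBP. Several antagonists are known to be induced as cells leave the cycle and differentiate, whereas *MYC* is among the most frequently raised genes of human tumors.

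TPC-1 is an established line from a papillary thyroid carcinoma. The comparison set 3 libraries of the wild strain (n = 3) against 3 libraries (n = 3) of the line infected with a lentivirus that carries *RRM2* under the CMV promoter and selected with puromycin. No library of cells infected with an empty vector was analysed here, so infection and selection cannot be told apart from *RRM2* itself. The genotype label of *RRM2*-OE-TPC-1 replicates 2 and 3 names *RRM3* and *RRM4*, whereas their titles name *RRM2*. *RRM2* was at 8.52 to 9.17 FPKM (fragments per kilobase of gene length, scaled to sequencing depth, the unit deposited) in TPC-1 and at 47.2 to 50.4 FPKM in *RRM2*-OE-TPC-1. Between 14317091 and 17084067 reads on genes stood behind each library. Over 8 thyroid markers the summed level was 73.9 to 77.8 FPKM in TPC-1 and 64.3 to 67.6 FPKM in *RRM2*-OE-TPC-1. Of the 3 that were tested, *PAX8* (69.3 and 58.5 FPKM) and *FOXE1* (4.30 and 3.19 FPKM) were lower and *HHEX* (2.47 and 4.61 FPKM) was higher at an adjusted p of 0.05 or less, whereas *NKX2-1* was at 0 in every library and *TG* near 0. The summed leukocyte markers did not exceed 0.162 FPKM in any library. Over 5 epithelial markers the sum was 42.8 to 47.1 FPKM in TPC-1 and 88.3 to 90.7 FPKM in *RRM2*-OE-TPC-1, with *EPCAM* and *KRT19* near 0. Over 3 endothelial markers it was 0.873 to 1.05 FPKM and 0.0667 to 0.115 FPKM. The part of these shifts in the results was not tested, and in bulk RNA fewer cells of a type and less RNA per cell cannot be told apart. Of 13621 genes tested with limma on log2(FPKM + 0.1), 34.9% were higher and 32.7% were lower in *RRM2*-OE-TPC-1 at an adjusted p of 0.05 or less, 67.6% together. With an absolute log2 fold change of at least 1 as well, 4.48% were higher and 6.97% lower. For 72.2% of these genes, the libraries of one group all lay above those of the other. Passing the threshold on p alone was therefore common in this comparison.

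Because the network reads and writes the E-box, its canonical letters CACGTG, which are the same on both strands, were looked for in RefSeq promoter windows on GRCh38.p14, from 250 bases before to 50 after each start. Of the members, 9 had a window (12 windows in all), and *MYC* had no entry. The letters were found for 3 members, *MXD4*, *MNT* and *MLX*, in 3 of the 12 windows, against 7.26% of 35116 windows and 8.77% of 27305 genes. Those windows held 71.0% to 76.0% G and C, against a median of 58.7% over all windows. The same letters lie before *ARRDC4*, a gene switched on by MondoA and MLX that is described further on. *TXNIP*, the other listed target of MondoA and MLX, had 2 windows, and 0 of them held the letters. The stretches around them are shown 5′ to 3′ on the strand of the gene, with the E-box in capitals.
MXD4: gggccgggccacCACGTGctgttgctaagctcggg
MNT: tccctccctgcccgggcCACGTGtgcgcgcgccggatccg
MLX: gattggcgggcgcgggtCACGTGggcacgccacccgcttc
ARRDC4: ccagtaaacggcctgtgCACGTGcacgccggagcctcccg
The *MXD4* stretch is chr4:2262325-2262359 on the minus strand, with the E-box 238 bases before the start. That of *MNT* is chr17:2401231-2401270 on the minus strand, 193 bases before the start. That of *MLX* is chr17:42567033-42567072 on the plus strand, 50 bases before the start, and that of *ARRDC4* is chr15:97960476-97960515 on the plus strand, 210 bases before the start. These distances are counted from the RefSeq starts, which differ from the gene bounds given with each member. The *MLX* stretch therefore reaches past the lower of the bounds given for that gene. A match of letters is a description of the window and not a bound site.

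The activators came first. *MYC* (ENSG00000136997, chromosome 8 from 127735434 to 127741434 of GRCh38) was at 128, 125 and 123 FPKM in the 3 TPC-1 libraries and at 70.3, 71.7 and 75.4 FPKM in the 3 *RRM2*-OE-TPC-1 libraries. Every TPC-1 library lay above every *RRM2*-OE-TPC-1 library. *MYC* was 42.0% lower in *RRM2*-OE-TPC-1, a log2 fold change of -0.78 (standard error, SE, 0.0371, limma adjusted p = 8.92e-07). The change was past the threshold on p and short of that on the fold. It stood at percentile 11.0 of the log2 fold changes of all tested genes, counted from the lowest. Even so, *MYC* remained an abundant mRNA, at ranks 206 to 506 among all genes over the 6 libraries, with 3048 to 6388 reads in each.

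*MYCL* (ENSG00000116990, chromosome 1 from 39895426 to 39902256), the paralog first found amplified in small cell lung cancer, had the largest change of the members on this scale. It was at 1.83, 1.57 and 1.51 FPKM in TPC-1 and at 0.533, 0.484 and 0.521 FPKM in *RRM2*-OE-TPC-1, with 122 to 155 reads in each TPC-1 library and 39 to 42 in each *RRM2*-OE-TPC-1 library. The log2 fold change was -1.50 (SE 0.131, limma adjusted p = 2.13e-05), past both thresholds, and the groups stood well apart. At this low level the pseudocount matters, and with a pseudocount of 1 the log2 fold change was -0.80, short of the threshold on the fold and smaller than that of *MXI1*. *MYCL* reached the minimum of 0.5 FPKM in every TPC-1 library but not in every *RRM2*-OE-TPC-1 library. *MYCN* (ENSG00000134323, chromosome 2 from 15940564 to 15947007), the paralog known from neuroblastoma, was not tested. No read of it was recovered in any of the 6 libraries, which allows a level of up to 0.0673 to 0.0798 FPKM per library at a floor of 3 reads, for counting error only. *MYC* supplied 98.6% to 98.8% of the summed FPKM of the activators in TPC-1 and 99.2% to 99.3% in *RRM2*-OE-TPC-1.

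**Figure D1:**
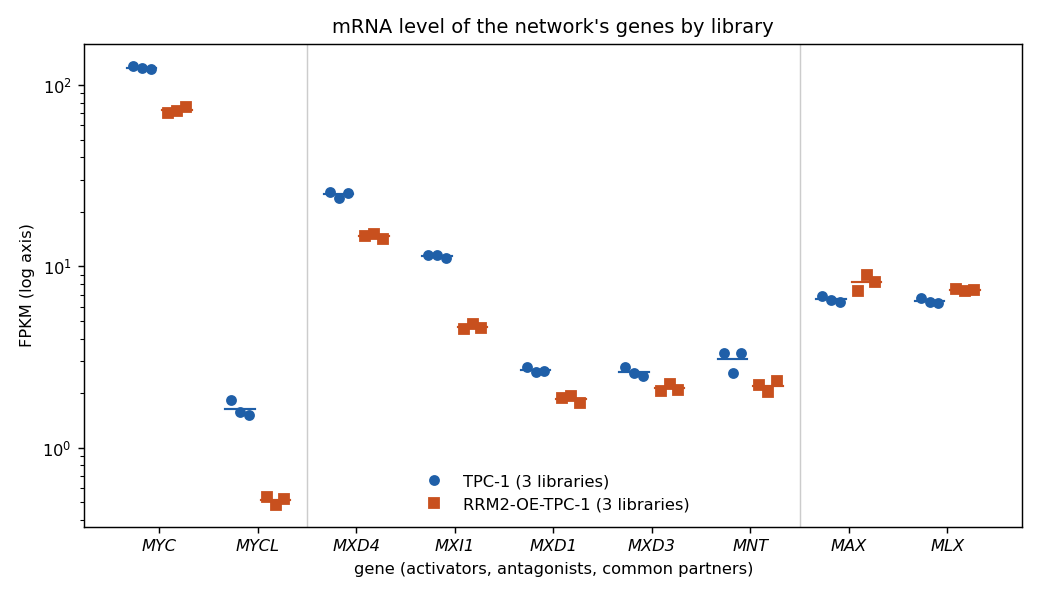
FPKM (log axis) of the 9 members above 0 in each library. Circles are the 3 TPC-1 libraries, squares the 3 *RRM2*-OE-TPC-1 libraries and short lines the group means; activators and antagonists are lower in *RRM2*-OE-TPC-1 and *MAX* and *MLX* higher, without overlap between the groups.

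The antagonists were lower as well. *MXI1* (ENSG00000119950, chromosome 10 from 110207605 to 110287365), which encodes the SIN3-recruiting protein also called MXD2, was at 11.5, 11.5 and 11.1 FPKM in TPC-1 and at 4.54, 4.79 and 4.59 FPKM in *RRM2*-OE-TPC-1. The libraries of a group were nearly alike and the groups were far apart. The mean was 2.45-fold lower in *RRM2*-OE-TPC-1, and the log2 fold change of -1.28 (SE 0.0473, limma adjusted p = 2.74e-07) was past both thresholds, at percentile 4.34 of all tested genes. Leaving out any single library kept it at -1.30 to -1.26.

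*MXD4* (ENSG00000123933, chromosome 4 from 2247432 to 2262294), the most abundant antagonist mRNA in these cells, was at 25.7, 24.0 and 25.4 FPKM in TPC-1 and at 14.8, 15.1 and 14.2 FPKM in *RRM2*-OE-TPC-1. It was 41.3% lower, a log2 fold change of -0.76 (SE 0.0420, limma adjusted p = 1.84e-06), close to the change of *MYC*. *MXD1* (ENSG00000059728, chromosome 2 from 69897688 to 69942945), the founding MAX dimerizer of the antagonist group, was at 2.78, 2.62 and 2.66 FPKM in TPC-1 and at 1.87, 1.94 and 1.77 FPKM in *RRM2*-OE-TPC-1. Its log2 fold change was -0.51 (SE 0.0812, limma adjusted p = 7.04e-04). The 3 TPC-1 libraries were all above the 3 *RRM2*-OE-TPC-1 libraries for both genes. Exons of *SNRNP27* on the same strand cover 3.73% of the exon bases of *MXD1*.

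*MNT* (ENSG00000070444, chromosome 17 from 2384060 to 2401118), an antagonist that is expressed in cycling and resting cells alike, was at 3.35, 2.57 and 3.31 FPKM in TPC-1 and at 2.22, 2.02 and 2.32 FPKM in *RRM2*-OE-TPC-1. TPC-1 replicate 2 lay nearer to the other group than its fellow replicates did. The log2 fold change was -0.47 (SE 0.118, limma adjusted p = 8.03e-03), and -0.59 without that library. *MXD3* (ENSG00000213347, chromosome 5 from 177301461 to 177312757), the family member known for expression in S phase, was at 2.78, 2.60 and 2.50 FPKM in TPC-1 and at 2.05, 2.25 and 2.08 FPKM in *RRM2*-OE-TPC-1. This was the smallest change among the antagonists, a log2 fold change of -0.29 (SE 0.0840, limma adjusted p = 0.0156). Without TPC-1 replicate 1 it was -0.25 with an adjusted p of 0.0531 from limma, past the threshold no longer. The value is uncertain. Exons of *PRELID1*, a gene at a mean of 39.1 FPKM in TPC-1 and 69.6 FPKM in *RRM2*-OE-TPC-1, cover 22.5% of the exon bases of *MXD3* on the opposite strand, and exons of *RAB24* cover 17.97% on the same strand. The sources used here do not say whether counting used strand, and the part of these overlaps in the value was not tested.

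The common partners moved the other way. *MAX* (ENSG00000125952, chromosome 14 from 65006174 to 65102695), the obligate partner of MYC and a partner of each antagonist, was at 6.86, 6.51 and 6.39 FPKM in TPC-1 and at 7.29, 8.96 and 8.23 FPKM in *RRM2*-OE-TPC-1. The groups did not overlap, although the *RRM2*-OE-TPC-1 libraries were spread over a wider range than those of TPC-1. The log2 fold change was 0.30 (SE 0.0772, limma adjusted p = 8.66e-03), between the quartiles of all tested genes (-0.37 and 0.36). *MLX* (ENSG00000108788, chromosome 17 from 42567068 to 42573239) was at 6.73, 6.35 and 6.32 FPKM in TPC-1 and at 7.47, 7.31 and 7.44 FPKM in *RRM2*-OE-TPC-1. Its log2 fold change was 0.19 (SE 0.0488, limma adjusted p = 7.92e-03). Exons of *PSMC3IP*, at 1.58 FPKM in TPC-1 and 3.64 FPKM in *RRM2*-OE-TPC-1, cover 18.1% of the exon bases of *MLX* on the opposite strand, and their part in this value was not tested.

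In counts, 7 of the 9 tested members passed the threshold on p as lower, against 32.7% of all tested genes, and 2 passed it as higher, against 34.9%. Past both thresholds, 2 were lower, *MYCL* and *MXI1*, against 6.97%, and 0 were higher, against 4.48%. The tested members' groups did not overlap for 9 of 9, which has to be read beside the 72.2% of all genes. The median log2 fold change of the tested members was -0.51, beside 0.011 for all tested genes. The direction of every tested member was the same under each scaling of the libraries.

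**Figure D2:**
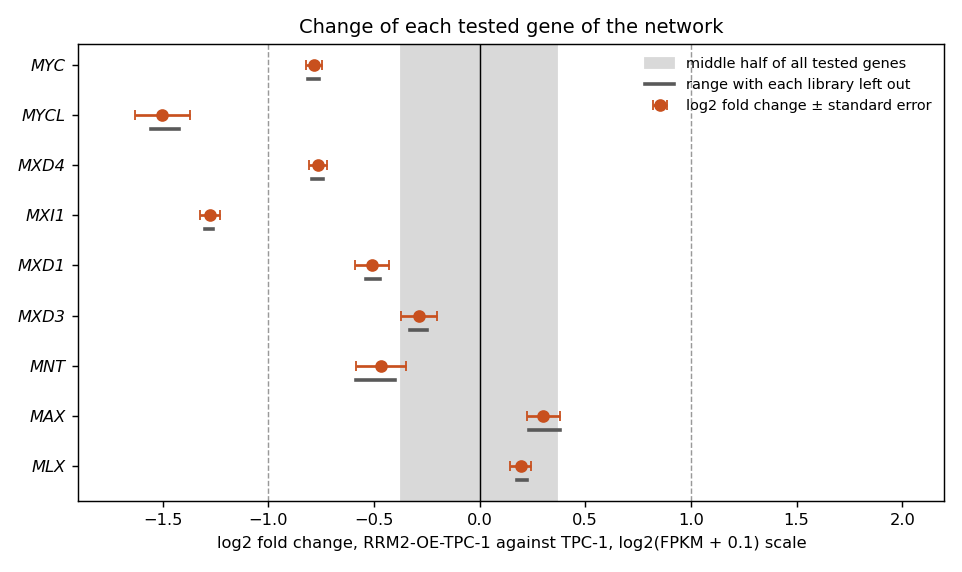
Log2 fold change of the 9 tested members (points, bars of 1 standard error), on the log2(FPKM + 0.1) scale. Dark lines give the range with each library left out, the grey band the span between the quartiles of all tested genes and dashed lines the threshold of 1; *MYCL* and *MXI1* lie past it.

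As FPKM is given per length, levels could be set beside each other, with the limit that the length is that of all annotated exons of a gene and not of the isoform in use. In TPC-1 the order ran from *MYC* (125 FPKM on average) through *MXD4* (25.02 FPKM), *MXI1* (11.4 FPKM), *MAX* (6.59 FPKM), *MLX* (6.47 FPKM), *MNT* (3.08 FPKM), *MXD1* (2.69 FPKM) and *MXD3* (2.62 FPKM) to *MYCL* (1.64 FPKM). The neighbours *MAX* and *MLX*, *MNT* and *MXD1*, and *MXD1* and *MXD3* overlapped in their libraries. In *RRM2*-OE-TPC-1, *MXI1* (4.64 FPKM) fell in the order from above *MAX* (8.16 FPKM) and *MLX* (7.41 FPKM) to below both, with no overlap, and *MXD1* (1.86 FPKM) came below *MXD3* (2.13 FPKM). There *MAX* and *MLX* overlapped, and so did *MNT* and *MXD3*.

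The sum of the activators *MYC*, *MYCN* and *MYCL* was 127 ± 2.70 FPKM (SD, n = 3) in TPC-1 and 73.0 ± 2.67 FPKM in *RRM2*-OE-TPC-1, which was 42.3% lower. The sum of the antagonists *MXD1*, *MXD3*, *MXD4*, *MXI1* and *MNT* was 44.8 ± 1.45 FPKM in TPC-1 and 25.5 ± 0.533 FPKM in *RRM2*-OE-TPC-1, 43.1% lower. The ratio of activators to antagonists was 2.80, 2.92 and 2.76 in the TPC-1 libraries and 2.78, 2.77 and 3.04 in the *RRM2*-OE-TPC-1 libraries. The groups overlapped, and their means of 2.83 and 2.86 differed by less than the spread within either. Set against *MAX*, both sums were much lower. Activators per *MAX* were 18.9 to 19.4 in TPC-1 and 8.06 to 9.71 in *RRM2*-OE-TPC-1, and antagonists per *MAX* were 6.64 to 7.04 and 2.91 to 3.49. These ratios are of mRNA, and no protein was measured in these files.

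**Figure D3:**
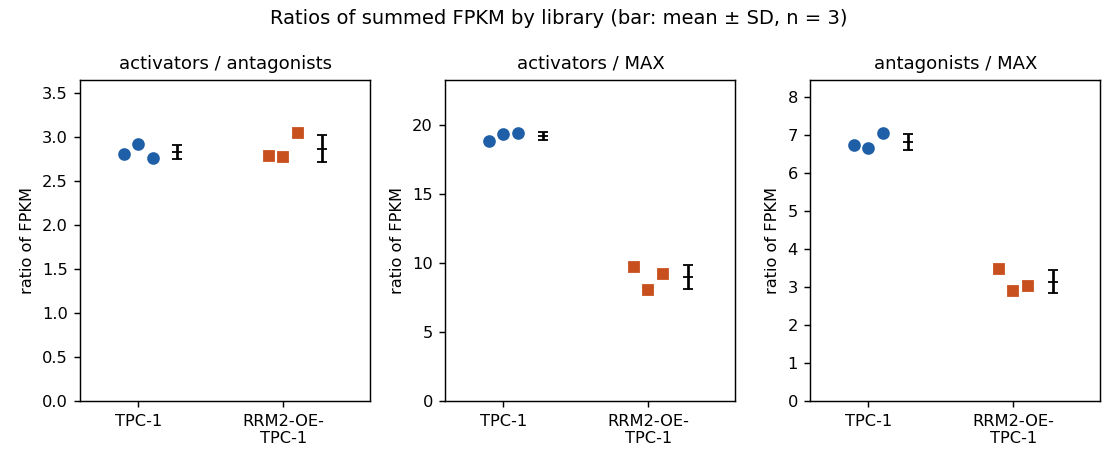
Ratios of summed FPKM in each library (circles TPC-1, squares *RRM2*-OE-TPC-1; black bars mean ± SD, n = 3; axes from 0). Activators over antagonists overlap between the groups, at 2.83 and 2.86 on average, whereas both sums over *MAX* do not overlap.

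Within the antagonists the makeup shifted. *MXI1* and *MXD4* together held 80.7% to 82.0% of the antagonist FPKM in TPC-1 and 75.3% to 76.2% in *RRM2*-OE-TPC-1. The ratio of *MYC* to *MXD4* was 4.96, 5.20 and 4.83 in TPC-1 and 4.76, 4.76 and 5.30 in *RRM2*-OE-TPC-1, so that these ranges overlapped. The ratio of *MYC* to *MXI1* was 10.8 to 11.1 in TPC-1 and 15.0 to 16.4 in *RRM2*-OE-TPC-1, without overlap.

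Other proteins join the network through MAX or MLX. *MLXIP*, which encodes MondoA, the partner that carries MLX to the promoters of glucose-responsive genes, was at 15.4 to 17.02 FPKM in TPC-1 and at 10.3 to 10.8 FPKM in *RRM2*-OE-TPC-1. It fell by a log2 fold change of -0.60 (SE 0.0479, limma adjusted p = 1.31e-05). *MGA*, a large MAX partner with a T-box, was at 4.68 to 5.24 FPKM and 4.39 to 4.75 FPKM, ranges that overlapped (log2 fold change -0.13, limma adjusted p = 0.111). *MLXIPL*, which encodes ChREBP, was below the minimum of the test, with 77 reads in all TPC-1 libraries together and 15 in those of *RRM2*-OE-TPC-1. Of this list, 1 of 2 tested genes passed the threshold on p as lower, against 32.7% of all tested genes, and 0 as higher, against 34.9%.

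Both direct targets of MondoA and MLX that were listed fell, past both thresholds, against 6.97% of all tested genes. The list held only 2 genes and was written with earlier results of these data known. *TXNIP*, a brake on glucose uptake, was at 174, 170 and 172 FPKM in TPC-1 and at 16.4, 15.5 and 16.99 FPKM in *RRM2*-OE-TPC-1, 10.5-fold lower. Its log2 fold change of -3.39 (SE 0.0391, limma adjusted p = 2.91e-09) was number 21 from the lowest of all tested genes. *ARRDC4*, an arrestin of the same family whose promoter stretch is printed above, was at 9.99, 8.75 and 10.1 FPKM in TPC-1 and at 2.45, 3.01 and 3.13 FPKM in *RRM2*-OE-TPC-1 (log2 fold change -1.72, SE 0.102, limma adjusted p = 2.68e-06). *HK2*, which MondoA and MYC are both known to induce, had a log2 fold change of 0.48 (limma adjusted p = 6.00e-05) and was named after its value had been seen.

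The listed genes known to be activated by MYC were mostly higher while the *MYC* mRNA was lower. These lists, like the others here, were written by hand with earlier results of these data known. The shares set beside them are therefore description and not a test. In the list of nucleolar genes, whose products build ribosomes, 31 of 34 tested genes passed the threshold on p as higher, against 34.9% of all genes, and 0 as lower, against 32.7%. The median log2 fold change was 0.61, beside 0.011 for all genes, and it was 0.55 to 0.63 over all alternatives. Past both thresholds were *RRP9* (log2 fold change 1.33), a protein of the U3 ribonucleoprotein, *GRWD1* (1.195), a histone-binding factor, *TCOF1* (1.11), which encodes treacle, and *DDX18* (1.07), an RNA helicase. Their means rose from 9.52 to 24.2 FPKM, from 8.88 to 20.5 FPKM, from 6.60 to 14.3 FPKM and from 15.5 to 32.5 FPKM. The 3 tested genes that did not pass were *UBTF* (log2 fold change 0.018), *WDR74* (0.15) and *PPAN* (0.14), named after their values had been seen. *NOP2* was not tested. Another gene on the same strand shares 54.4% of the exon bases of *NOP2* and 56.0% of those of *PPAN*, so that their levels are uncertain.

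In the list of metabolic and growth genes activated by MYC, 25 of 35 passed the threshold on p as higher, against 34.9% of all tested genes, and 7 as lower, against 32.7%, with a median log2 fold change of 0.42. Past both thresholds as higher were *HSPE1* (log2 fold change 1.58) and *HSPD1* (1.16), the mitochondrial chaperonins, *ODC1* (1.36), the first enzyme of polyamine synthesis, *NME1* (1.15), a nucleoside diphosphate kinase, and *TFRC* (1.09), the transferrin receptor. *ODC1*, a classical target with E-boxes in its gene, rose from 25.8 ± 1.81 to 66.4 ± 3.30 FPKM (SD, n = 3 each). The nucleoside transporter *SLC29A2* was the 1 gene past both thresholds as lower, from 2.56 to 0.716 FPKM (log2 fold change -1.69). *HSPE1* and *HSPD1* share exon bases on opposite strands, and *NME1* shares exons with *NME1-NME2*, so these values are uncertain. Another gene on the same strand shares 41.1% of the exon bases of *EIF4A1*, and *NME1-NME2* shares 22.9% of those of *NME2*. The levels of *EIF4A1* and *NME2*, also in this list, are therefore uncertain too.

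In the short list of cell cycle genes activated by MYC, 11 of 12 tested genes passed as higher, against 34.9% of all, and 1 as lower, against 32.7%, with a median of 0.70. *CDC25A* (log2 fold change 1.59), a phosphatase that activates cyclin-dependent kinases, *SKP2* (1.49), which marks p27 for destruction, and *MCM4* (1.48), a subunit of the replicative helicase, were past both thresholds as higher. *ID2*, an inhibitor of differentiation factors, fell from 36.0 FPKM in TPC-1 to 14.2 FPKM in *RRM2*-OE-TPC-1 (log2 fold change -1.34). *CCND2* was at 0 in every library. Many of these genes also respond to E2F and to the cell cycle phase, and the share of cells in each phase was not measured in these files.

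Of 12 tested genes listed as repressed by MYC, 6 passed the threshold on p as higher, against 34.9% of all tested genes. Another 4 passed it as lower, against 32.7%. Whether MYC represses each of them in these cells was not tested. The median log2 fold change was 0.19. Past both thresholds as higher were *DKK1* (log2 fold change 3.47), a secreted Wnt antagonist, *CDKN1A* (2.33), which encodes p21, *CCND1* (1.29), cyclin D1, and *THBS1* (1.21), a matrix protein that restrains vessel growth. *CDKN1A* is also a direct target of p53. *DKK1* reached the minimum of the test in the *RRM2*-OE-TPC-1 libraries only, from 0.384 to 5.26 FPKM. *NDRG2*, 1 of the 4 genes called lower, reached it in the TPC-1 libraries only, from 0.560 to 0.355 FPKM. It was named after its value had been seen. Lower past both thresholds was *CLU*, the secreted chaperone clusterin, at 340.0 FPKM in TPC-1 and 88.3 FPKM in *RRM2*-OE-TPC-1 (log2 fold change -1.94).

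**Figure D4:**
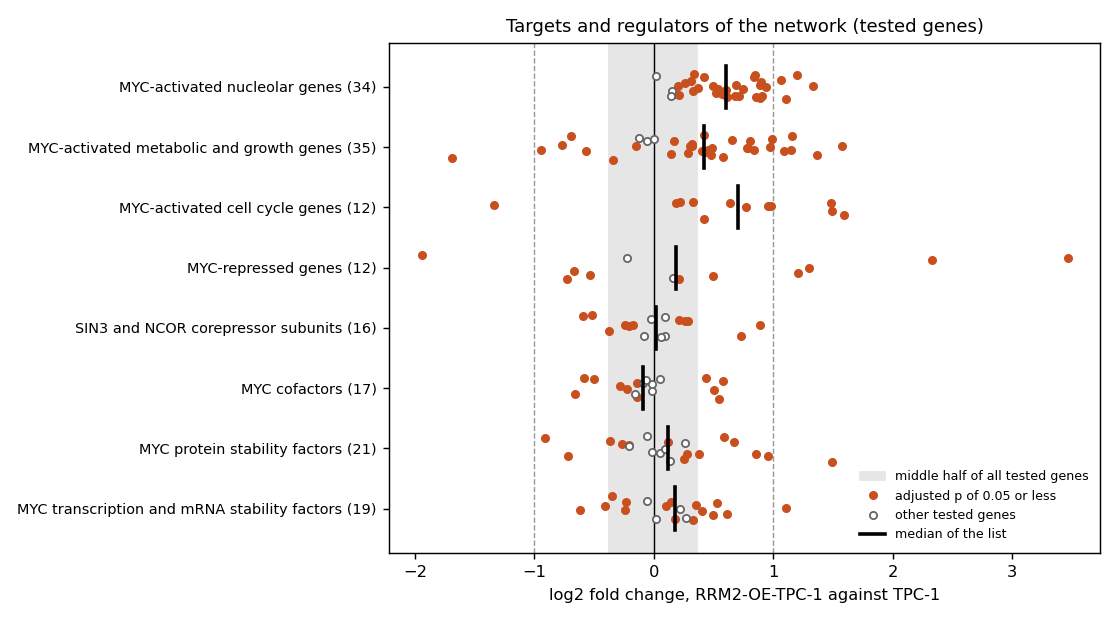
Log2 fold change of the tested genes of each list, with their number in brackets. Filled points have an adjusted p of 0.05 or less, thick black lines are list medians and the grey band spans the quartiles of all tested genes; the lists of MYC-activated genes lie to the right, with medians of 0.61, 0.42 and 0.70.

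The complexes that the network recruits had no gene past both thresholds. Of 16 genes of the SIN3 and NCOR corepressors, through which MXD proteins and MNT silence genes, 5 passed the threshold on p as higher and 6 as lower. Together these were 68.8% of the list, near the 67.6% of all tested genes, and 0 changed past both thresholds, against 4.48% higher and 6.97% lower of all. The median log2 fold change of 0.018 ranged from -0.039 to 0.045 over all alternatives, so that it has no stable sign. *BRMS1*, a subunit of the SIN3 complex, changed most (log2 fold change 0.89, limma adjusted p = 2.61e-06). Of 17 MYC cofactors, 4 passed the threshold on p as higher and 7 as lower, with 0 past both. Their share of 64.7% is again near that of all genes. The largest change in this list was that of the acetyltransferase gene *CREBBP* (log2 fold change -0.66, limma adjusted p = 1.91e-05).

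Of 21 factors that set the stability of the MYC protein, 9 passed the threshold on p as higher and 5 as lower, 66.7% together beside 67.6% of all tested genes, with a median of 0.12. Past both was *SKP2*, a ligase subunit for MYC as well as for p27, from 5.52 to 15.7 FPKM. Of 19 tested factors that act on *MYC* transcription or on its mRNA, 10 passed as higher, against 34.9% of all, and 5 as lower, against 32.7%, with a median of 0.18. *NOTCH1*, a receptor that switches on *MYC* in several tissues, was past both thresholds, from 3.48 to 7.62 FPKM (log2 fold change 1.11), but not with a pseudocount of 1.

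Next to *MYC* on the chromosome lies *PVT1* (ENSG00000249859), a long noncoding RNA gene whose promoter is known to compete with that of *MYC* for enhancers. It was at 10.1, 10.7 and 10.3 FPKM in TPC-1 and at 14.4, 15.2 and 16.3 FPKM in *RRM2*-OE-TPC-1, higher without overlap while *MYC* was lower (log2 fold change 0.55, SE 0.0535, limma adjusted p = 3.97e-05). Of 8 noncoding or pseudogene transcripts listed near the MYC genes, 7 were in the table, and *PVT1* was the 1 that reached the minimum of the test.

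The genes most like *MYC* over the 6 libraries were looked for among 4270 tested protein-coding genes with a mean of at least 10 FPKM. Among the highest Pearson correlations of log2(FPKM + 0.1) were those of *MAT2A* (0.9995), *TNC* (0.9994), *CELSR2* (0.9992) and *IFITM3* (0.9991). As the libraries fall into 2 groups, such values are common, and 1078 of the candidates had a correlation above 0.9. For *MAX*, the member that rose most, they were *MAGOH* (0.9978), *OST4* (0.996), *SORBS3* (0.9912), *RPL6* (0.9908) and *VPS29* (0.9886), with 266 candidates above 0.9.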

How the data were processed

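The authors trimmed the reads (fastp), mapped them (HISAT2 2.0.5) and counted them per gene (featureCounts 1.5.0). They divided the counts by gene length and depth and deposited FPKM values. The submitters' processing notes name GRCh38.p14. Poly(A) selection is described in the methods, and removal of ribosomal RNA with RNase R digestion in the labels.

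Here each value was multiplied by gene length, which gave whole multiples of 1 step per library (within 0.01 of a read) for 100.0% of genes above 0, so that reads could be recovered. Genes with at least 0.5 FPKM and 10 reads in at least 3 libraries were tested on log2(FPKM + 0.1) with limma 3.58.1 in R 4.3.3, with trended variance and Benjamini-Hochberg adjustment over 13621 genes. The scale understates changes of low genes. The smallest two-sided p that exact permutation of 3 libraries against 3 allows for 1 gene is 0.1. The procedure was also run on simulated reads in which far fewer genes changed than were called here. That run therefore does not show how it performs on these data. The study calls the replicates biological without naming separate cultures, so p-values measure only the spread between these libraries. Exon overlaps came from GENCODE 29, and figures were drawn with matplotlib 3.10.9.

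The members and the lists, written by hand, were chosen with earlier results of these data known. Named are the members and, in each list, the genes past both thresholds, or else the gene with the largest change, plus the 5 genes most like *MYC* and most like *MAX*, of which 1 is not reported here. *HK2*, *UBTF*, *WDR74*, *PPAN* and *NDRG2*, named otherwise, are marked. *MGA* and the untested *MLXIPL*, *NOP2* and *CCND2* were also named outside this rule and carry no mark. *RRM2*, the cell type markers and genes named for shared exon bases are outside it too. Alternatives were pseudocounts of 1 and 0.01, testing every gene above 0, scaling to library totals, voom on recovered reads, the replicate number as a block, and each library left out.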

Additional observations from a re-analysis of the deposited data

How the results depend on the processing

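Over 12 alternatives, 107 of 108 refitted log2 fold changes of the tested members kept their direction and their side of the threshold on p. The exception was *MXD3* without TPC-1 replicate 1 (-0.25). The log2 fold change of *MYC* lay between -0.84 and -0.76, and the lowest value came from scaling to library totals, which moved the median of all genes from 0.011 to -0.045. With a pseudocount of 1, 1 member was past both thresholds as lower, *MXI1*, in place of 2. With *MGA* added to the antagonists, the ratio of activators to antagonists was 2.54 for TPC-1 and 2.43 for *RRM2*-OE-TPC-1. Same-numbered libraries did not deviate together (correlations of -0.0105, -0.00602 and -0.055), and their titles link them by number only. These values cannot show whether they shared a culture or a preparation. With the replicate block the log2 fold change of *MYC* was again -0.78, and 8934 genes in place of 9207 passed the threshold on p. Without the filter, 30958 genes entered the test, 2281 of them past both thresholds in place of 1560. With a pseudocount of 1 this number was 716. In the lists, 8 counts moved by over 1.5 times. *NOTCH1* was short of the threshold on the fold with a pseudocount of 1. Without TPC-1 replicate 3, 2 metabolic genes in place of 1 were past both thresholds as lower and 2 stability factors in place of 1 as higher. Of the other partners, 2 in place of 1 passed the threshold on p as lower with library totals, with voom and without the filter. At 39 to 42 reads, *MYCL* in *RRM2*-OE-TPC-1 is the tested member least well measured.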
